A study of Arabidopsis thaliana with 63 samples.

Results

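The segment is a stretch of consecutive genes on Arabidopsis thaliana chromosome 3, taken as every gene in the RNA-seq tables with an identifier from AT3G57980 to AT3G58470. It holds 34 of the 26870 genes in the tables, which also list TEs for 29961 features in all. The members were selected on the RNA-seq values of the same libraries, which were lower in both mutants than in WT, so every comparison with WT below is a description and not a test. In the RefSeq annotation of the TAIR10.1 assembly the members span chr3:21466919-21628569, which is 161651 bases, with 10 genes on the plus strand and 24 on the minus strand. RefSeq annotates 55 genes with identifiers in this range, and those not among the 34 were not analysed here.

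RNA came from whole 10-day-old Col-0 seedlings, with 3 libraries of WT and 3 of each triple mutant, h2a.w-1 and h2a.w-2. Both mutants carry mutations in all 3 genes for the histone variant H2A.W, HTA6, HTA7 and HTA12, and share the T-DNA alleles of HTA7 and HTA12. They differ in the HTA6 allele, which is a SALK T-DNA insertion in h2a.w-1 and a CRISPR-Cas9 frameshift, named hta6-2, in h2a.w-2. The T-DNA allele of HTA6 comes with a large rearrangement and duplication of chromosome 1, so h2a.w-1 differs from WT by more than the loss of H2A.W. All 3 targeted genes lie on chromosome 5, not on chromosome 3.

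H2A.W is a histone H2A variant of flowering plants that marks constitutive heterochromatin, whereas the segment lies in the gene-rich part of a chromosome arm. The MATH domain, also called the TRAF-like domain, is a protein interaction fold, and plants carry many genes for it, often in tandem clusters. One of them, RTM3, restricts the long-distance movement of tobacco etch virus in Arabidopsis.

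The tables give each genotype's mean of normalized reads, from which the whole reads of each library were recovered. Since the columns carry no replicate numbers, the 3 libraries of a genotype are called A, B and C from the largest size factor to the smallest, a size factor being the number that scales a library to a common depth. The recovered total was 5812579 to 9391308 reads per library, and levels below are reads divided by size factors set over all 9 libraries. The study states that seedlings of a genotype were collected at random for each replicate, without saying whether replicates shared a tray, and p-values measure the spread between these libraries. HTA6 stood at 6.26% of the WT mean in h2a.w-1 and at 29.7% in the h2a.w-2-labelled libraries, and HTA7 had 74.4 to 99.6 normalized reads in the 6 mutant libraries against 649 to 662 in WT. HTA12 was at 80.7, 96.6 and 105 normalized reads in WT, at 16.3, 18.1 and 21.7 in h2a.w-1, and at 25.1, 102 and 24.3 in the h2a.w-2-labelled libraries. Library B of those labelled h2a.w-2 thus lay in the WT range for HTA12, against its label, and the counts without it are given below. For HTA6 library B had 261 normalized reads, beside 280 and 195 in libraries A and C and 771 to 921 in WT. For HTA7 it had 74.4. The strand option of the read counting is not given in the sources used here, and a gene on the opposite strand overlaps HTA12. Green tissue markers were abundant in every genotype, with RBCS1A, the small subunit of Rubisco, at the authors' means, scaled per table, of 21105 for WT, 29539 for h2a.w-1 and 18298 for h2a.w-2. The summed level of 3 root hair genes was 229.7 to 604 for WT, 101 to 242 for h2a.w-1 and 122 to 296 for the h2a.w-2-labelled libraries. The summed level of 3 seed genes was at most 2.56 for WT, 18.0 to 302 for h2a.w-1 and 1.91 to 8.59 for the h2a.w-2-labelled libraries, and that of 3 floral genes stayed at or under 14.6. The part of these differences in the results below was not tested.

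The reads of neighbouring family members can be told apart only where their sequences differ. Every 75-base exon window of all 34 members, the length of a read, occurred once in the genome. Among the MATH-domain and TRAF-like genes of the segment, the longest run of identical coding bases was 52, shared by AT3G58370 and AT3G58380. It is printed in capitals within 75 coding bases, from position 457 of AT3G58370 and position 463 of AT3G58380, both on the minus strand, to show that a read-length stretch still tells these neighbours apart.
AT3G58370: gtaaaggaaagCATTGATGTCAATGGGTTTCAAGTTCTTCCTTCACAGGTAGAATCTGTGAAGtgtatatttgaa
AT3G58380: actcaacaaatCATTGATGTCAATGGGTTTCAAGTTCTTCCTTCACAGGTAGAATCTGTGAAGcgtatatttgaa
Among the 5 family members with more than a few reads, 65.2% of the positions were identical in the end-to-end coding alignment of AT3G58200 and AT3G58270, with gaps counted as differences, and 43.0% in that of AT3G58350 and AT3G58430. These were the highest and lowest of 10 pairs by this measure, and without the gaps the values were 71.4% and 71.7%, so the order rests on the gaps. The stretch where AT3G58200 and AT3G58270 are closest is printed from coding position 347 of AT3G58200 and 344 of AT3G58270, with the 61 identical bases of 75 in capitals.
AT3G58200: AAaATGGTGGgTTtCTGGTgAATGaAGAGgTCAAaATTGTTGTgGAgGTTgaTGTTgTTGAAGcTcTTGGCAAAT
AT3G58270: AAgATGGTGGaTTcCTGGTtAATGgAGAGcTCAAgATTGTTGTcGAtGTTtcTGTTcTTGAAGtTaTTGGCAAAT

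Across the segment, the median level of the members in both mutants was close to 50% of WT. Of the 34 members, 24 had a mean of at least 10 normalized reads in each of the 3 comparisons, 3 in some of them only, and 7 in none. The median over the 24 genes of the level relative to the WT mean was 103.8%, 98.1% and 99.0% in the WT libraries A, B and C. It was 54.4%, 51.9% and 52.3% in h2a.w-1, and 53.3%, 52.1% and 52.0% in the h2a.w-2-labelled libraries. By these medians the 6 mutant libraries lay within a few percent of each other and none came near a WT library. Library B labelled h2a.w-2 was like the other mutant libraries here. Single genes of the 24 varied, from 37.9% (BZIP61) to 84.2% (AT3G58430) of the WT mean in h2a.w-1. In the h2a.w-2-labelled libraries they ran from 40.0% (AT3G58000) to 71.5% (AT3G58090). In bulk seedlings, fewer cells that express a gene and less RNA per cell cannot be told apart.

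**Figure D1:**
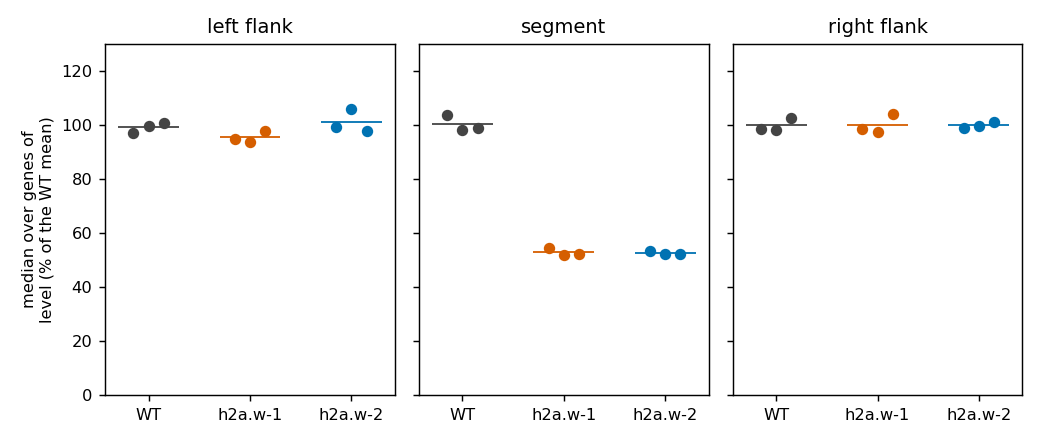
Median over genes of the level in each library as a percentage of the WT mean, for 84 left flank genes, 24 segment genes and 77 right flank genes, with points for libraries A, B and C and lines for their mean. The mutant libraries stand at 51.9% to 54.4% in the segment and at 93.6% to 105.8% in the flanks.

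The flanks, AT3G57000 to AT3G57970 with 101 genes and AT3G58480 to AT3G59500 with 99 genes, stayed near the WT level. The median log2 difference between h2a.w-1 and WT was -0.06 over 84 tested genes of the left flank, -0.89 over 27 tested genes of the segment and 0.03 over 79 tested genes of the right flank, beside -0.01 over all 19683 features tested. For the h2a.w-2-labelled libraries against WT it was 0.03, -0.95 over 26 segment genes and -0.01, beside 0.00 over all 19629 features tested. A log2 difference under -0.5 was found for 81.5% of the segment genes, 16.7% of left flank genes, 11.4% of right flank genes and 14.0% of all features in h2a.w-1. In the h2a.w-2-labelled libraries the shares were 96.2%, 7.14%, 8.86% and 7.40%. Both comparisons use the same 3 WT libraries.

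**Figure D2:**
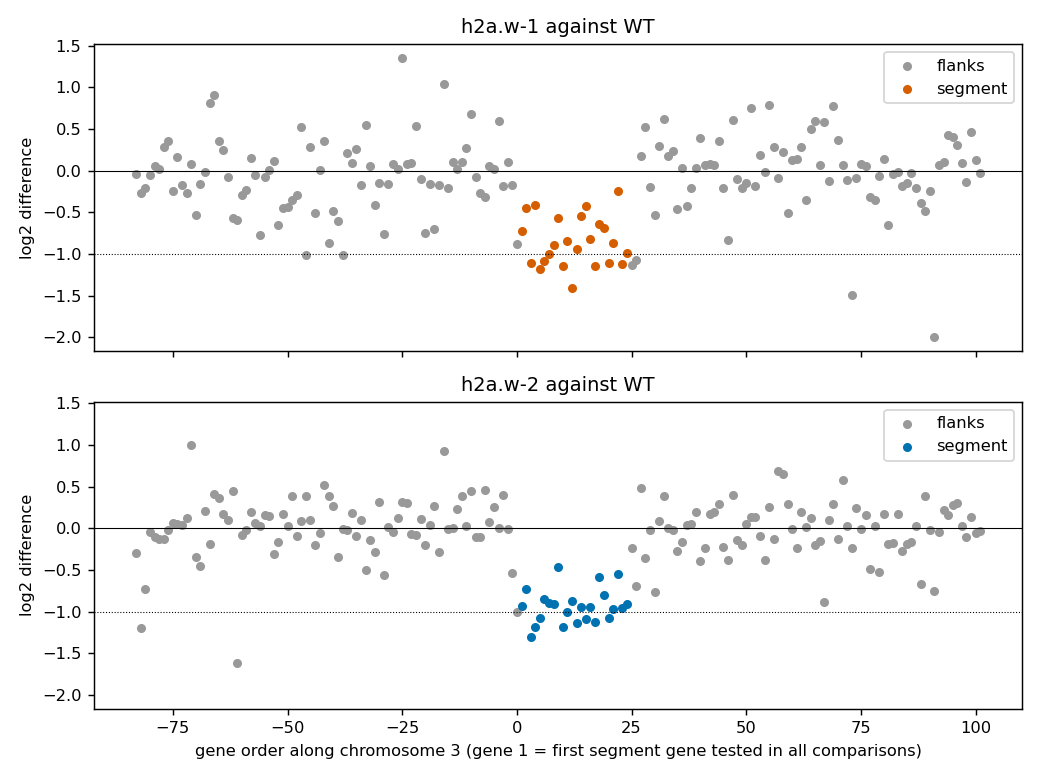
Log2 difference from WT of each gene tested in all comparisons, by gene order along chromosome 3, for h2a.w-1 above and the h2a.w-2-labelled libraries below, with a dotted line at -1. The segment genes lie together below 0, and the genes at the borders are AT3G57965 on the left and SPP1 and PP2A-4 on the right.

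The values change within a few genes at both borders. On the left, AT3G57940 outside the segment differed from WT by 0.11 in h2a.w-1 and by -0.01 in the h2a.w-2-labelled libraries on the log2 scale, and AT3G57950 by -0.17 and -0.54 at only 7.16 to 24.9 normalized reads. AT3G57965, the last gene outside, differed by -0.88 and -1.01, like the first genes inside, AT3G57980 with -0.72 and -0.93 and AT3G57990 with -0.45 and -0.73. On the right, the last genes inside were RBL15, a rhomboid-like protein, with -1.12 and -0.96, and AT3G58470 with -0.99 and -0.91.

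Just outside the right border, SPP1 had 320.4, 402 and 377 normalized reads in WT. It had 143, 150.4 and 224 in h2a.w-1, and 259, 252 and 478 across the h2a.w-2-labelled libraries. The libraries labelled h2a.w-2 overlapped WT, because library C was above every WT library. PP2A-4, a catalytic subunit of protein phosphatase 2A, had 2488, 2936 and 2912 in WT, 1251, 1290.2 and 1403 in h2a.w-1, and 1459, 1597 and 2150.5 across the h2a.w-2-labelled libraries. Both mutants stayed below WT for PP2A-4, and its 2 next neighbours outward, AT3G58510 and AT3G58520, overlapped WT in both. SPP1 and PP2A-4 overlap by a few bases on opposite strands, so reads may be shared between them.

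A gene was called where limma voom, fitted across all features, gave an adjusted p below 0.05 and a log2 fold change beyond 1 either way, and by this rule 9 of 27 tested segment genes were called lower in h2a.w-1 and none higher, beside 3.2% of all features called lower. In the h2a.w-2-labelled libraries the count was 1 of 26, beside 0.0153% of all features. At any fold, the counts were 22 (8.26% of all features) and 2 (0.0204%). With DESeq2, another method, at the same thresholds, the paper reports more genes lower in h2a.w-2 than were called here over all features. Every mutant library was below every WT library in 25 of 27 segment genes for h2a.w-1 (18.4% of all features) and in 24 of 26 for h2a.w-2 (10.3%). Without h2a.w-2-labelled library B, whose HTA12 level goes against its label, 0 segment genes were called lower and the median log2 difference was -0.93. The single call was equally lost without WT library A, B or C or h2a.w-2-labelled library A, and 6 genes were called with all 9 libraries in 1 fit. The share of all features was not taken in these other fits, so the change in count is not read as particular to the segment. LBD29 and AT3G58150 passed the limit of 10 reads only through WT, yet both are in these counts and in the log2 medians and shares above. LBD29 is 1 of the 9 genes called in h2a.w-1. Among the 24 genes tested in every comparison, every h2a.w-1 library was below WT in 23 and every h2a.w-2-labelled library in 22. Since the rule used these contrasts, nothing is read from the counts.

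AT3G58030, SINAT2 and AT3G58050 had the highest WT means of the segment and similar ratios. AT3G58030, a RING/U-box protein, had 1273, 1252 and 1282 normalized reads in WT, 588, 602 and 605 in h2a.w-1, and 652, 668 and 800.3 across the h2a.w-2-labelled libraries. SINAT2, a RING-type ubiquitin ligase, had 1005, 894 and 927 in WT, 457, 468 and 488 in h2a.w-1, and 521, 523 and 469.6 across the h2a.w-2-labelled libraries. No mutant library reached a WT library for either gene. AT3G58050, an uncharacterized protein, stood at 54.0% of the WT mean in h2a.w-1 and at 53.4% in the h2a.w-2-labelled libraries. Some other genes with many reads were further from these ratios in h2a.w-1. BZIP61 was lower, at 37.9% of the WT mean, while AT3G58140 at 68.0% and AT3G57990 at 73.4% were higher. In the h2a.w-2-labelled libraries these genes stood at 56.0%, 51.9% and 61.5%.

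BZIP61, a basic leucine zipper transcription factor, had 837, 823 and 844 in WT, 292, 319.9 and 337 in h2a.w-1, and 420.1, 388 and 594 across the h2a.w-2-labelled libraries. All mutant libraries were below WT, with h2a.w-1 lowest at 37.9% of the WT mean and library C highest among those labelled h2a.w-2. An annotated RNA on the opposite strand overlaps BZIP61. RBL15 had 632, 604 and 637 in WT, 271, 296 and 293 in h2a.w-1, and 317, 311 and 341 across the h2a.w-2-labelled libraries, and it is one of 2 segment genes with an adjusted p under 0.05 in the latter (limma voom, 0.0275). The other was AT3G58180, an ARM repeat protein, at 0.0449, with 378, 374 and 339 in WT, 153, 169 and 173 in h2a.w-1, and 186, 162 and 147 across the h2a.w-2-labelled libraries. For both genes every mutant library was below every WT library. The members were selected on these same libraries, so the adjusted p-values of both genes describe them and are no test.

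Several neighbours on opposite strands overlap, and their reads may be shared. RBL15 and AT3G58470 overlap on the same strand, so reads may be shared there too. PDCB5, a plasmodesmata callose-binding protein, stood at 44.4% of the WT mean in h2a.w-1 and 43.9% in the h2a.w-2-labelled libraries, and its partner AT3G58110 at 55.7% and 49.9%. AT3G58130, a de-N-acetylase of glycolipid anchors, stood at 51.8% and 44.8%, and its partner AT3G58140, a phenylalanyl-tRNA synthetase, at 68.0% and 51.9%. BS14A, a BET1-like membrane traffic protein, overlaps AT3G58180 and stood at 56.3% and 52.1%. All of these were below WT in every mutant library.

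**Figure D3:**
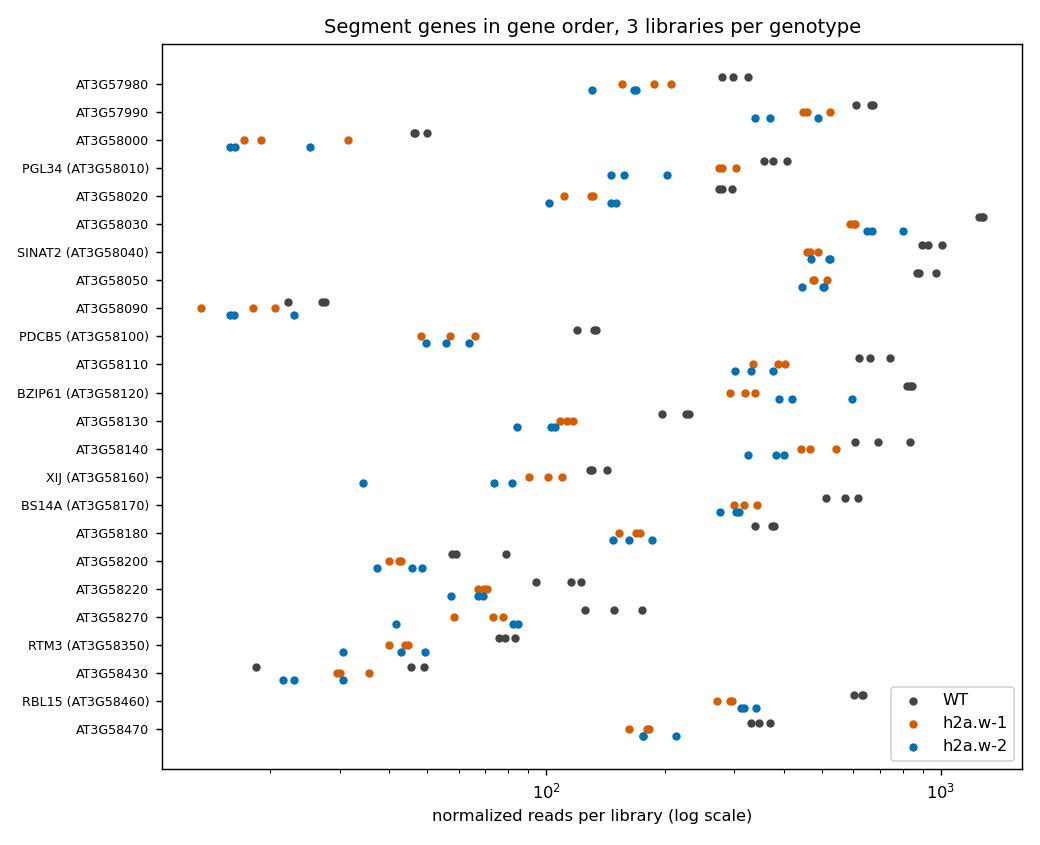
Normalized reads per library on a log scale for the 24 segment genes tested in all comparisons, in gene order, with 3 libraries each of WT, h2a.w-1 and the h2a.w-2-labelled libraries. In 23 genes every h2a.w-1 library lies below every WT library, and in 22 genes every library labelled h2a.w-2 does. Over all features tested this held for 18.4% in h2a.w-1 and 10.3% in the h2a.w-2-labelled libraries. The members were selected on these contrasts, so the counts are no test.

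Lower-level members showed the same range. AT3G58020, a DnaJ-domain chaperone, had 274, 279 and 296 in WT, 131, 129 and 111 in h2a.w-1, and 149.9, 146 and 102 across the h2a.w-2-labelled libraries. AT3G58000, a VQ motif protein, had 49.9, 46.1 and 46.6 in WT, 18.9, 31.4 and 17.2 in h2a.w-1, and 25.1, 16.2 and 15.7 across the h2a.w-2-labelled libraries. Neither gene overlapped between WT and a mutant. AT3G58090, a dirigent-like protein, was at 67.8% and 71.5% of the WT mean, and the h2a.w-2-labelled libraries overlapped WT.

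LBD29, a lateral organ boundaries-domain transcription factor that acts in lateral root formation, was the lowest relative to WT. It had 17.5, 24.8 and 27 in WT, 3.43, 6.67 and 3.43 in h2a.w-1, and 6.28, 5.72 and 1.43 across the h2a.w-2-labelled libraries, which is 19.5% and 19.4% of the WT mean. AT3G58150, an OPA3-like protein, had 7.49, 13.7 and 27 in WT, 0.859, 3.81 and 5.72 in h2a.w-1, and 6.28, 4.77 and 5.73 across the h2a.w-2-labelled libraries. Both genes passed the limit of 10 reads only through WT, so a lower level in the mutants was built into their being tested.

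GIS, a C2H2 zinc finger regulator of trichome initiation, was the one tested member above WT in h2a.w-1. It had 7.49, 5.98 and 9.81 in WT and 24.9, 14.3 and 5.72 in h2a.w-1, and these overlapped. It had 6.28, 2.86 and 5.73 in the h2a.w-2-labelled libraries, and it passed the limit of 10 reads only through h2a.w-1.

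Of the 17 MATH-domain or TRAF-like genes annotated in the segment, 7 were in the tables and 3 had at least 10 normalized reads on average in every comparison. AT3G58200 had 79.1, 59.0 and 57.7 in WT, 42.9, 40.0 and 42.3 in h2a.w-1, and 48.5, 37.2 and 45.8 across the h2a.w-2-labelled libraries. AT3G58220 had 116, 122 and 94.5 in WT, 67.0, 69.5 and 70.9 in h2a.w-1, and 69.1, 57.2 and 67.3 across the h2a.w-2-labelled libraries. Both were below WT in every mutant library. AT3G58430 had 49.1, 45.3 and 18.4 in WT, 30.1, 29.5 and 35.5 in h2a.w-1, and 30.5, 22.9 and 21.5 across the h2a.w-2-labelled libraries, and WT library C lay below every mutant library while the other WT libraries lay above them.

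RefSeq describes RTM3 without naming the domain, and AT3G58270 as a protein with a TRAF-like domain rather than of the TRAF-like family, so the wording used for the list left both out. RTM3 had 75.7, 78.6 and 83.4 in WT, 43.8, 44.8 and 40.0 in h2a.w-1, and 49.4, 30.5 and 43.0 across the h2a.w-2-labelled libraries. AT3G58270, a PEARLI 4-like protein, had 126, 175 and 148 in WT, 58.4, 73.3 and 77.8 in h2a.w-1, and 82.6, 84.9 and 41.5 across the h2a.w-2-labelled libraries. Neither overlapped WT, and both were added after their values were seen. The other 4 family members had few reads, with 37 in all 9 libraries for AT3G58380, 5 for AT3G58290, 2 for AT3G58370 and 1 for AT3G58340, too few to compare. The median log2 difference from WT of the 3 listed members with enough reads was -0.64 for h2a.w-1 and -0.58 for the h2a.w-2-labelled libraries, and with RTM3 and AT3G58270 added it was -0.69 and -0.80. Of 47 MATH-domain or TRAF-like genes elsewhere in the genome, 29 and 28 were tested, with medians of -0.02 and 0.02.

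The remaining members with under 10 reads on average in every comparison were AT3G58060, a cation efflux protein with 47 reads in all, AT3G58450 with 5 and the pseudogene AT3G58347 with 1.

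The comparison of the mutants with each other asks whether the members differ between the 2 triple mutants, which differ in the HTA6 allele and the chromosome 1 duplication. The members were chosen for being low in both mutants, on these same libraries, so the counts here are not independent of that choice and describe the members only. By the same rule, 0 of the 24 tested segment genes were called, beside 5.75% of all 19576 features tested. An unadjusted p under 0.05 in limma voom was found for 4 of the 24 genes and for 5963 of the 19576 features. The median log2 difference of the members, h2a.w-2 minus h2a.w-1, was -0.06, with 0.12 in the left flank, -0.05 in the right flank and 0.00 over all features. At any fold 1 member, PGL34, had an adjusted p under 0.05, which 14.8% of all features had.

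PGL34, a plastoglobulin of the lipid bodies of plastids, had 409, 356 and 377 normalized reads in WT, 302, 279 and 274 in h2a.w-1, and 146, 202 and 157 across the h2a.w-2-labelled libraries. It was lower in the h2a.w-2-labelled libraries than in h2a.w-1 by a log2 difference of -0.76 (SE 0.15, 95% interval -1.10 to -0.43, adjusted p = 0.0135 in limma voom), in 3 of 3 libraries. The adjusted p rose to 0.0657 without h2a.w-1 library A and to 0.0515 without h2a.w-1 library B.

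BZIP61 differed by 0.54 (95% interval 0.15 to 0.92, adjusted p = 0.0678) and XIJ, a class XI myosin, by -0.66 (95% interval -1.30 to -0.02, adjusted p = 0.154) in limma voom, the latter with 101, 90.5 and 109.8 in h2a.w-1 and 73.6, 82.0 and 34.4 in the h2a.w-2-labelled libraries. AT3G58140 differed by -0.39 (95% interval -0.69 to -0.09, adjusted p = 0.0807 in limma voom). These 3 missed the adjusted threshold, and apart from PGL34 every other interval included 0. Without h2a.w-2-labelled library C, the difference was -0.36 for XIJ and 0.36 for BZIP61. The interval was -0.25 to 0.22 for AT3G58050 and -0.64 to 0.44 for RTM3. For these 2 genes the libraries do not settle whether there is a difference within those bounds.

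**Figure D4:**
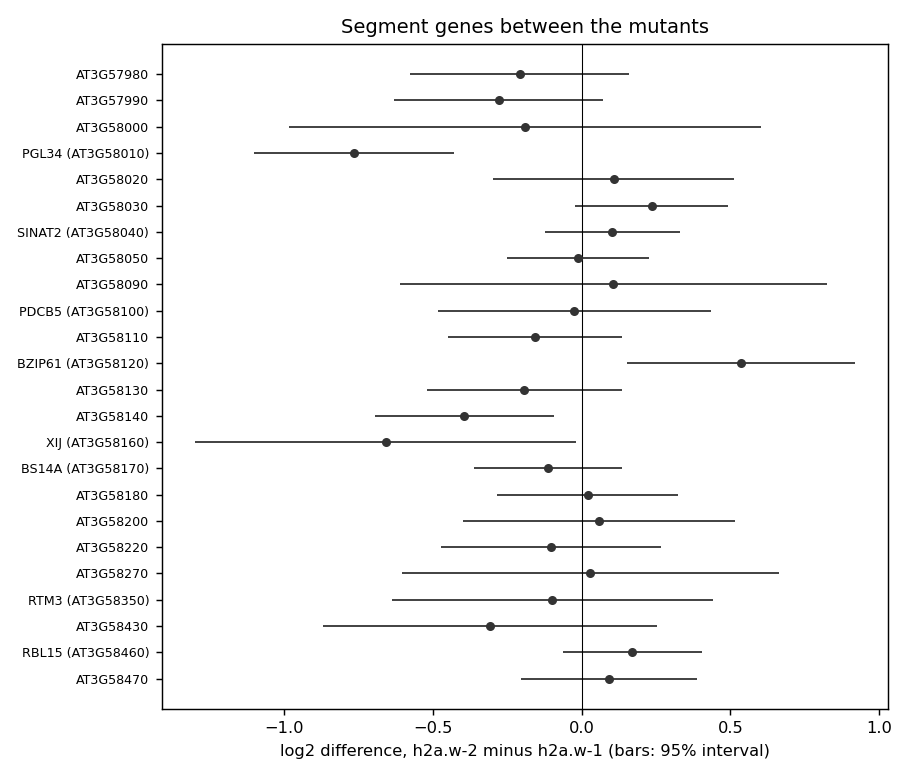
Log2 difference between the h2a.w-2-labelled libraries and h2a.w-1 for the 24 segment genes tested in all comparisons, with 95% intervals from limma voom. PGL34 lies at -0.76, BZIP61 at 0.54, and most other intervals include 0.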

How the data were processed

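RNA-seq of 3 libraries of WT and 3 of each mutant was used, grouped by the labels. The authors depleted ribosomal RNA, trimmed reads with Trim Galore 0.5.0, aligned them to TAIR10 with STAR 2.7.0c, dropped multiply aligned reads and duplicates, and counted reads with HTSeq. The deposited signal is a mean of normalized reads per genotype. The tables also hold the authors' own fold changes and p-values, which were not used.

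Whole reads per library were recovered by searching for whole-number combinations that give the deposited means, up to a mean of 12000, and 1 combination was found for 29881 of 29961 features. The method found the right reads for 2000 of 2000 features of simulated data. Features with a mean of at least 10 normalized reads were tested with limma 3.58.1 (voom, R 4.3.3) on the libraries of each comparison, with size factors as median ratios and Benjamini-Hochberg adjustment over all features. Between the mutants, the test called 80 of 100 changed features of log2 size 1 among 19539 features of simulated data at any fold. The simulated reads had the same dispersion for every feature and library, so this does not give the power in the real libraries.

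Named genes were the family members with reads, the border genes, the 10 segment genes with the largest difference from WT in each mutant, the 3 most positive, and the H2A.W genes. The members and lists were chosen with earlier results of these data known. Alternatives were limma-trend with a pseudocount of 0.5, scaling to recovered totals, size factors without chromosome 1, a limit of 1 read, all 9 libraries in 1 fit, and each library left out. Chromosome 3 of the RefSeq assembly TAIR10.1 has the length of TAIR10, and sequences were read from it.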

Additional observations from a re-analysis of the deposited data

Results flagged for a closer look

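PGL34 was the member with an adjusted p under 0.05 between the 2 mutants in limma voom, with a log2 difference of -0.76 between the h2a.w-2-labelled libraries and h2a.w-1. The members were chosen on the same libraries, so this value is not independent of that choice.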

How the results depend on the processing

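No paired analysis was possible because the columns carry no replicate numbers. In h2a.w-1, 9 segment genes were called lower (3.2% of all features) and 22 at any fold (8.26%). Leaving out each library gave 7 to 11. In the h2a.w-2-labelled libraries, 1 was called (0.0153% of all features) and 2 at any fold (0.0204%). The count was 0 under limma-trend and under scaling to recovered reads, and 6 with all 9 libraries in 1 fit. It was 0 to 1 with a library left out, namely 0 without WT library A, B or C or h2a.w-2-labelled library A or B. Between the mutants 0 were called in the main setting (5.75% of all features) and 1 at any fold (14.8%). With any library left out, 0 were called. The share of all features was not taken under the other settings, so shifts in count are not read as particular to the segment. The median log2 difference of segment genes was -0.89 in h2a.w-1, with -0.93 to -0.88 over libraries left out, -0.79 for genes without overlaps and -0.94 for genes of at least 100 reads. In the h2a.w-2-labelled libraries it was -0.95, with -0.99 to -0.93 over libraries left out and -0.91 without overlapping genes. Between the mutants it was -0.06, with -0.091 under scaling to recovered reads, -0.024 with the limit of 1 read, -0.012 for genes of at least 100 reads and -0.13 to -0.049 over libraries left out. The MATH-domain median in h2a.w-1 was -0.64, -0.44 with the limit of 1 read and -0.71 to -0.47 over libraries left out, and in the h2a.w-2-labelled libraries -0.58, with -0.88 (without WT library C) to -0.43. AT3G58430 in h2a.w-1 was 0.013 without WT library A, a reversal of its sign. The overlap and 100-read lists were chosen after seeing the data, and the cause of these shifts was not tested. Of 577 gene values against WT under alternatives, 576 moved by less than their spread. Values of genes with under 10 reads are limited by depth.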
